A study of Mus musculus with 7 samples.

Results

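The MEF2 transcription factors and the class IIa histone deacetylases (HDACs) were followed as 7 genes, Mef2a, Mef2c, Mef2d, Hdac4, Hdac5, Hdac7 and Hdac9, of the 56748 genes with a count row in each of 7 mouse RNA libraries. The 7 genes and the gene lists used below were chosen by name, with earlier results of these data known. The study had already reported Mef2c among the genes lower in Jag2sm MuSCs. Each of the 7 symbols matched 1 Ensembl identifier of the count rows. The libraries were long-read direct cDNA libraries of muscle stem cells (MuSCs) from hind limb muscle of adult mice, 3 from WT mice and 4 from homozygous Jag2sm mice. Jag2 encodes a ligand of the NOTCH receptors. The sm allele is a natural missense allele that the mouse carries in every cell. The study calls it hypomorphic, while the sample labels give the genotype as Jag2-/-. The mice of the mutant group came from STOCK Jag2sm/J, the strain of the WT mice for these libraries is not given in the sources used here, and the study used both sexes. In both groups the cells were depleted of CD31+, CD45+ and Sca1+ cells and selected for integrin α7 on magnetic columns. The study's general methods keep MuSCs on collagen in a serum- and bFGF-containing myoblast growth medium. Its RNA-seq methods do not say whether the cells of these libraries were cultured. Nothing in the labels ties each library to 1 animal or 1 culture, so every p-value measures the spread between these libraries only.

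MEF2 proteins bind DNA as dimers through an N-terminal MADS box and switch on genes of the contractile apparatus together with the myogenic bHLH factors. Class IIa HDACs bind MEF2 at its target genes and hold them silent. Phosphorylation by CaM kinases and their relatives lets 14-3-3 proteins carry these HDACs out of the nucleus, which frees MEF2, so the balance between both families is a textbook switch of myoblast differentiation.

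The coding sequences of the 3 Mef2 genes open with the part that encodes the MADS box, and this stretch is shown because reads of the paralogs are told apart by such differences. The first 174 bases of the canonical GENCODE M39 coding sequences are given below 5′ to 3′, with capitals at the 49 positions where the 3 genes are not all alike.
Mef2a: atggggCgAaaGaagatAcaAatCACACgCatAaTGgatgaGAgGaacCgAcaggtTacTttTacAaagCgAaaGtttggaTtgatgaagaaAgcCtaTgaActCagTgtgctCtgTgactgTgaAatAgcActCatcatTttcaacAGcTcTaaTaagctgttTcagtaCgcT
Mef2c: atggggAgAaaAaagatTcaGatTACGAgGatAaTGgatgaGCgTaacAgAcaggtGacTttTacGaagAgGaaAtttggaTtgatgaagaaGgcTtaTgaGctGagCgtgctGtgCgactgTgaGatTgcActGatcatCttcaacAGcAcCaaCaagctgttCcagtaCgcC
Mef2d: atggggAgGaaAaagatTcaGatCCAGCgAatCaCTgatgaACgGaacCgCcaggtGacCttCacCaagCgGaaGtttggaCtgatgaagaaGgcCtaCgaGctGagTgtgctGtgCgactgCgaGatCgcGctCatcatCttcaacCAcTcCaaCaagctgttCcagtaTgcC
Over these bases Mef2a and Mef2c were 81.6% identical, Mef2a and Mef2d 77.6%, and Mef2c and Mef2d 82.8%. Over the whole coding sequences the identity was 61.1%, 61.4% and 57.5%, counting alignment gaps as differences, and the longest run shared by any pair of the 3 was 28 bases, between Mef2c and Mef2d. Among the 4 HDACs the whole-coding identity ran from 53.6% to 64.0%, and the longest run shared by a pair was 36 bases, between Hdac5 and Hdac7.

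Sites for MEF2 itself in the promoters of the 7 genes were looked for in RefSeq windows of GRCm38.p6, which hold 250 bases before and 50 bases after each transcript start. The 10-base MEF2 consensus site, searched on both strands, was present in 3.19% of the 32851 windows and in 2 of the 13 windows of the 7 genes. These 2 windows are printed with the match in capitals.
Mef2a promoter, chr7:67372809-67373108, minus strand: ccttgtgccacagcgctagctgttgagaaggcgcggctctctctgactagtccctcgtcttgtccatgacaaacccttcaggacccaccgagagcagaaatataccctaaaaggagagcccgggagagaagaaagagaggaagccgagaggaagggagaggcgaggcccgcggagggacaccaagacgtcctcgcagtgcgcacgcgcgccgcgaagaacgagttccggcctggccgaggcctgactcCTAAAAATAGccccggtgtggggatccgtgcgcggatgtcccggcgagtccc
Hdac5 promoter, chr11:102230123-102230422, minus strand: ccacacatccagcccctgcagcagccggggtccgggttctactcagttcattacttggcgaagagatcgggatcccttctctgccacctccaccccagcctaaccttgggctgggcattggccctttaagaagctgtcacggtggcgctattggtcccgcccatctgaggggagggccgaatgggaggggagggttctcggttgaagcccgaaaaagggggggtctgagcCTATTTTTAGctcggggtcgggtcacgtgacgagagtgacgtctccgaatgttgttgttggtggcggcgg
The match began 2 bases before the transcript start of Mef2a and 20 bases before that of Hdac5. The 3 windows of Mef2c, the 4 of Hdac7, the 2 of Hdac9 and the single ones of Mef2d and Hdac4 held no match to these letters.

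Library depth ran from 187834 reads assigned to genes in WT replicate 1 to 1937581 in Jag2sm replicate 3. WT replicate 1 stood apart. It was the shallowest library, no gene was hit by 45.1% of the reads it aligned (20.8% to 25.7% elsewhere), and 3 reads equal 16.0 CPM, read counts scaled to a common library total, in it against 1.55 to 4.47 in the others. The tested Mef2 genes and Hdac7 are given without it as well. In Jag2sm replicates 1, 2 and 4, 46.0% to 50.8% of reads were not aligned, against 2.44% to 3.24% in the other 4 libraries. Jag2, the mutated gene, gave 14, 176 and 122 counts in WT and 30, 114, 146 and 95 in Jag2sm. At 80.7 to 116 CPM in WT and 42.4 to 78.8 CPM in Jag2sm, every Jag2sm library lay below every WT library. Its log2 fold change of -0.64 ± 0.24 (SE, adjusted p = 0.166) did not pass, but after thinning to the smallest library it did (-1.18, adjusted p = 0.0414), and a missense allele leaves a transcript that counts cannot tell from the WT one. CPM values below were scaled by edgeR's trimmed mean of M values (TMM), and a gene was called at an adjusted p under 0.05 over the 9489 genes with enough counts to test. Of these, 6.26% were called, 4.84% lower and 1.42% higher in Jag2sm.

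All 3 Mef2 genes were lower in Jag2sm MuSCs, and Mef2c fell most. None of the 3 tested HDACs was called in either direction, and Hdac9 was too low to test. So 3 of the 6 tested genes were called lower, beside 4.84% of all tested genes. The set was chosen with earlier results of these data known, so this count is not independent of them. Without Jag2sm replicate 2 only Mef2c kept its call. Lower levels in bulk RNA can come from fewer cells that express a gene or from less of its RNA per cell, which cannot be told apart here.

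Mef2c (ENSMUSG00000005583.17, GRCm39 chr13:83652064-83815555, plus strand), a MEF2 gene that rises as myoblasts differentiate, gave 1049, 462 and 528 CPM in WT replicates 1 to 3. It gave 58.0, 42.8, 15.8 and 75.0 CPM in Jag2sm replicates 1 to 4, from 41, 62, 32 and 92 reads. The highest Jag2sm library was far below the lowest WT library, and WT replicate 1 was the highest library. The WT mean was 680 ± 321 CPM (SD, n = 3) and the Jag2sm mean 47.9 ± 25.1 CPM (SD, n = 4). The log2 fold change was -3.83 ± 0.48 (SE, 95% interval -4.89 to -2.77, adjusted p = 0.00285), a 14.2-fold lower level. Counted from the lowest, this fold change ranked 44 of 9489. Without WT replicate 1 the log2 fold change was -3.42 (adjusted p = 0.00435). Within the batches of the labels, whose numbers are the replicate numbers, Jag2sm minus WT was -4.14, -3.38 and -4.92 in log2 CPM in batches 1, 2 and 3. Batch 4 holds a Jag2sm library only.

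Mef2a (ENSMUSG00000030557.18, chr7:66880911-67022606, minus strand), a widely expressed MEF2 factor, gave 340, 216 and 249 CPM in WT and 99.0, 89.1, 127 and 131 CPM in Jag2sm. The groups did not overlap. Means were 268 ± 64.3 (SD, n = 3) and 112 ± 20.7 CPM (SD, n = 4), and the log2 fold change was -1.23 ± 0.24 (SE, 95% interval -1.75 to -0.71, adjusted p = 0.0131), 2.35-fold lower. The within-batch differences were -1.76, -1.26 and -0.96. The call was lost without Jag2sm replicate 2 (adjusted p = 0.0561), while without WT replicate 1 the log2 fold change was -1.06 (adjusted p = 0.0170). Exons of Mef2a overlap those of Lysmd4 on the other strand, and how the counting used strand is not given in the sources used here. Lysmd4 itself had 31 counts in WT and 42 in Jag2sm against 656 and 618 for Mef2a.

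Mef2d (ENSMUSG00000001419.18, chr3:88049185-88079398, plus strand), which is expressed in myoblasts before they differentiate, gave 306, 168 and 163 CPM in WT and 122, 85.0, 93.1 and 91.3 CPM in Jag2sm. These groups did not overlap either, and replicate 1 was the highest in each of them. Means were 212 ± 80.8 (SD, n = 3) and 97.8 ± 16.3 CPM (SD, n = 4), with a log2 fold change of -1.06 ± 0.26 (SE, 95% interval -1.64 to -0.49, adjusted p = 0.0366), 2.09-fold lower. The within-batch differences were -1.32, -0.97 and -0.80. This call was the least stable of the 3. With the batch number as a block the adjusted p was 0.0625, with library size alone as the scaling it was 0.0700, and it ran from 0.0560 to 0.131 without WT replicate 2, WT replicate 3, or Jag2sm replicate 2, 3 or 4. Without WT replicate 1 the log2 fold change was -0.78 (adjusted p = 0.0375). The direction was the same in all 16 alternative fits for each of the 3 genes. The 2 genes whose exons overlap Mef2d on the other strand had 2 to 4 counts per group.

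The 3 Mef2 genes were each separated between the genotypes, every Jag2sm library below every WT library, which held for 12.2% of all tested genes. For each of them the exact two-sided permutation p of the difference in mean log2 CPM was 0.0286, the smallest that the 35 splits of 7 libraries can give. The 3 genes together summed to 1161 ± 465 CPM across the WT libraries (SD, n = 3) and to 257 ± 37.2 CPM across the Jag2sm libraries (SD, n = 4). Mef2b, the fourth gene of the family, had 0 counts in all 7 libraries, which allows up to 0.999 CPM over the pooled WT libraries and 0.571 CPM over the pooled Jag2sm libraries, counting error only. Its exons overlap Borcs8 on the same strand and Rfxank on the other, so reads from shared stretches may not have been assigned to it and these limits do not cover such reads.

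**Figure D1:**
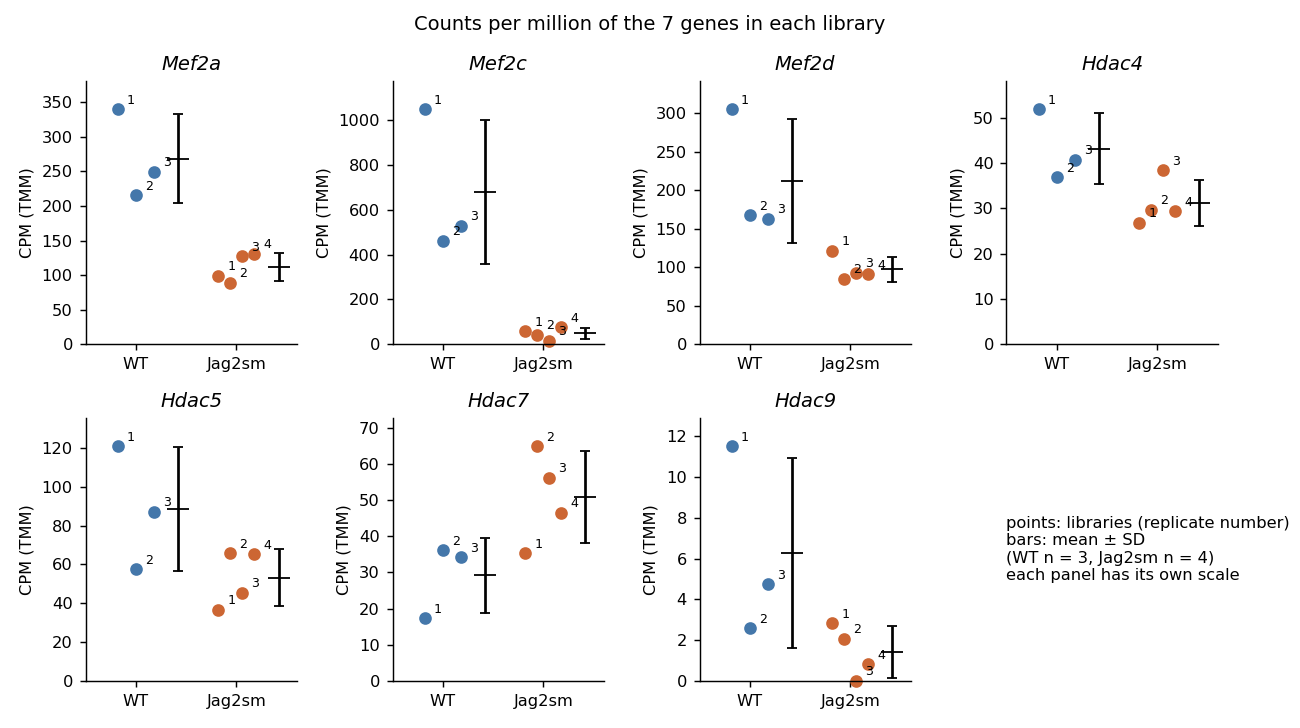
CPM (TMM-scaled, linear axes that start at 0) of the 7 genes by genotype, 1 panel a gene, with points for libraries labelled by replicate number and bars for the mean ± SD (WT n = 3, Jag2sm n = 4). Every Jag2sm point lies below every WT point for Mef2a, Mef2c and Mef2d, while the groups overlap for the 4 HDACs.

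Of the class IIa HDACs, Hdac4 (ENSMUSG00000026313.17, chr1:91855937-92123421, minus strand), a repressor of MEF2 that also answers to loss of innervation in muscle, gave 51.9, 36.8 and 40.8 CPM in WT. In Jag2sm it gave 26.9, 29.7, 38.4 and 29.3 CPM. One Jag2sm library, replicate 3, lay within the WT range and the other 3 below it. The log2 fold change was -0.38 ± 0.24 (SE, 95% interval -0.91 to 0.15, adjusted p = 0.426). The interval holds no change as well as a log2 fold change of -0.91, with 9 to 78 reads per library.

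Hdac5 (ENSMUSG00000008855.18, chr11:102085245-102121072, minus strand), the other deacetylase classically exported from the nucleus by CaM kinase signals, gave 121, 57.5 and 87.3 CPM in WT and 36.8, 65.6, 45.3 and 65.2 CPM in Jag2sm. The groups overlapped, with 2 Jag2sm libraries below all WT libraries. The log2 fold change was -0.61 ± 0.29 (SE, 95% interval -1.25 to 0.04, adjusted p = 0.287). The within-batch differences had both signs, at -1.67, 0.19 and -0.92. Exons of Hdac5 overlap G6pc3 on the other strand (83 counts in WT, 199 in Jag2sm).

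Hdac7 (ENSMUSG00000022475.20, chr15:97687372-97742383, minus strand), a deacetylase best known from endothelium and thymocytes that also binds MEF2, was the only one of the 6 tested genes with a positive estimate. It gave 17.3, 36.2 and 34.1 CPM in WT and 35.3, 65.0, 56.2 and 46.5 CPM in Jag2sm. Jag2sm replicate 1 lay within the WT range and the other 3 above it. The log2 fold change was 0.66 ± 0.28 (SE, 95% interval 0.04 to 1.28, adjusted p = 0.221), which did not pass. Without WT replicate 1, where it had 3 reads, the log2 fold change was 0.54 (adjusted p = 0.293), and the within-batch differences were 0.96, 0.81 and 0.69. Its exons overlap Slc48a1 on the other strand, a gene with 114 counts in WT and 414 in Jag2sm and a log2 fold change of 0.91 (adjusted p = 0.130). The endothelial marker list, given below, summed to 4.74 to 11.5 CPM in WT and 7.88 to 17.0 CPM in Jag2sm. None of its 7 markers had enough counts to test. The part of endothelial cells in the Hdac7 estimate was not tested.

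Hdac9 (ENSMUSG00000004698.12, chr12:34097579-34967094, minus strand), itself known as a target of MEF2, had 2, 4 and 5 reads in WT and 2, 3, 0 and 1 in Jag2sm. It did not pass the filter on low counts. Pooled over the libraries of a group, 11 of 3004053 reads in WT and 6 of 5254162 in Jag2sm gave a log2 ratio of -1.68, with an exact 95% interval of -3.40 to -0.12 that covers counting error only and leaves out the spread between libraries. Beside the 3 Mef2 genes, this left no class IIa HDAC with a called change. The summed level of the 4 HDACs was 133 to 202 CPM in WT and 102 to 162 CPM in Jag2sm, and these ranges overlapped.

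**Figure D2:**
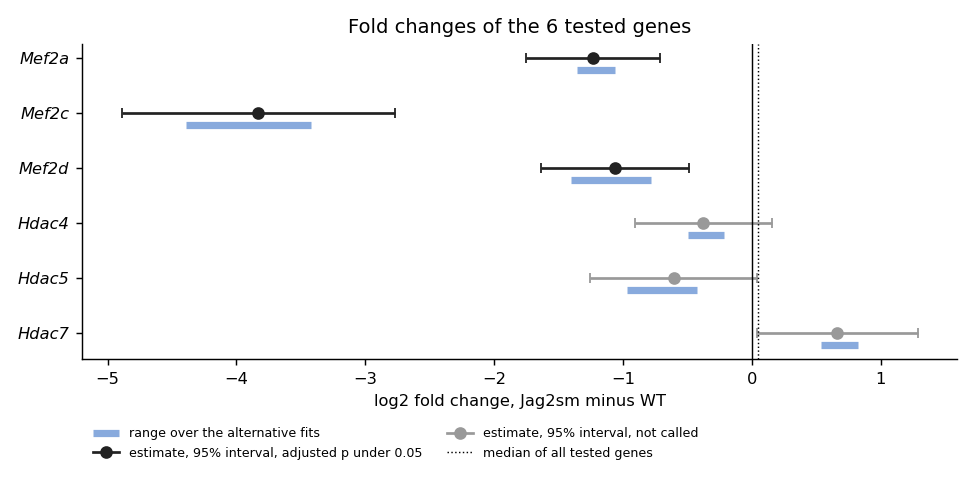
Log2 fold change (Jag2sm minus WT) of the 6 tested genes with 95% intervals, black where the adjusted p was under 0.05 and grey where not. The blue bars are the ranges of the estimate over the 14 to 16 alternative fits that test the gene, and the dotted line is the median of all tested genes, 0.05. Mef2c lies at -3.83 and Mef2a and Mef2d at -1.23 and -1.06.

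Whether Mef2c changed by another amount than its relatives was asked of the log2 ratio of their CPM within each library, which does not depend on the scaling between libraries. The ratio of Mef2c to Mef2a was 1.62, 1.09 and 1.08 in WT and -0.75, -1.03, -2.88 and -0.79 in Jag2sm. Every WT library thus had more Mef2c than Mef2a reads and every Jag2sm library fewer. The mean ratio changed by -2.63 between the genotypes. Against Mef2d the change was -2.82, against Hdac4 -3.42, against Hdac5 -3.18 and against Hdac7 -4.67. Without WT replicate 1 the change against Hdac7 was -3.99. For each of these 5 ratios the groups did not overlap, and the exact two-sided permutation p was 0.0286, or 0.0343 after Benjamini-Hochberg adjustment over the 6 ratios tested. The ratios share Mef2c, so they are not independent of each other. A p of 0.0286 is the smallest that the 35 splits can give, and Mef2c by itself had already reached it. The 5 tests thus largely restate the drop of Mef2c, and the sizes of the changes carry the comparison. The ratio of Mef2a to Mef2d was 0.37 ± 0.23 (SD, n = 3) in WT and 0.18 ± 0.37 (SD, n = 4) in Jag2sm, and the groups overlapped. Its change of -0.19 did not pass (exact permutation p = 0.457). The ratio of Mef2c to Hdac9 was not tested, since Hdac9 had too few reads.

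**Figure D3:**
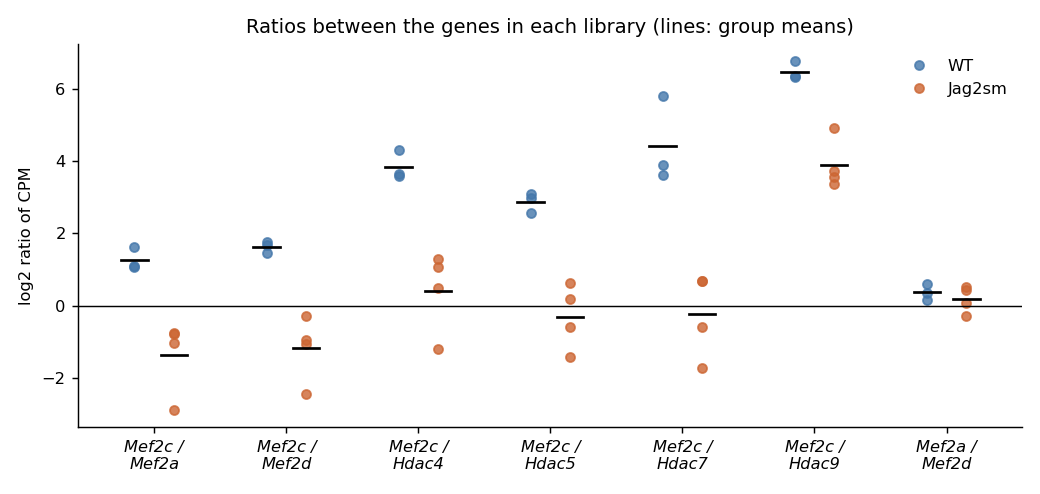
Log2 ratio of CPM between pairs of the 7 genes in each library, with WT in blue, Jag2sm in orange and lines at the group means. The ratios of Mef2c to the other genes do not overlap between the genotypes, and the ratio of Mef2a to Mef2d does.

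The make-up of the Mef2 transcripts differed with genotype. Mef2c took 61.9% of the reads of the 3 Mef2 genes in WT replicate 1 (exact 95% interval 56.1 to 67.5), 54.6% in replicate 2 (51.9 to 57.3) and 56.1% in replicate 3 (53.0 to 59.3). In Jag2sm replicates 1 to 4 it took 20.8% (15.4 to 27.2), 19.7% (15.5 to 24.6), 6.68% (4.61 to 9.30) and 25.2% (20.8 to 30.0). The WT libraries were close to each other, and Jag2sm replicate 3 stood below the other Jag2sm libraries beyond the counting intervals. The mean share was 57.6% ± 3.84 (SD, n = 3) in WT and 18.1% ± 7.98 (SD, n = 4) in Jag2sm. Mef2a went from 24.0% ± 3.47 to 43.6% ± 7.68 and Mef2d from 18.4% ± 1.30 to 38.2% ± 5.44 of the Mef2 reads, although both had lower CPM in Jag2sm.

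**Figure D4:**
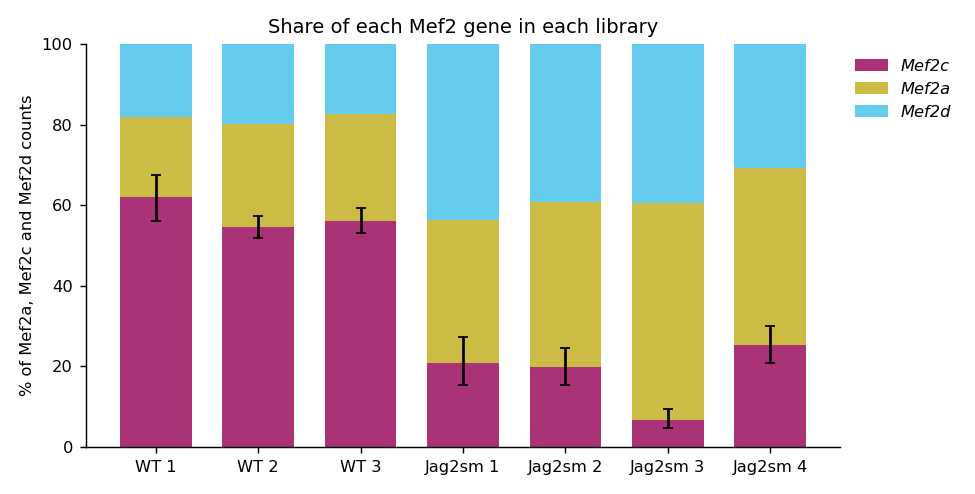
Percent of the reads of Mef2a, Mef2c and Mef2d that each gene took in each of the 7 libraries, with exact 95% binomial intervals on Mef2c (counting error only). Mef2c takes 54.6% to 61.9% in WT and 6.68% to 25.2% in Jag2sm.

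Per kb of the longest annotated transcript, Mef2c was the highest of the 7 genes in WT, at 94.9 ± 44.9 CPM per kb (SD, n = 3). It was followed by Mef2a at 45.5 ± 10.9, Mef2d at 35.4 ± 13.5, Hdac5 at 16.4 ± 5.88, Hdac4 at 4.89 ± 0.88, Hdac7 at 3.88 ± 1.38 and Hdac9 at 0.726 ± 0.539. The ranges of Mef2a and Mef2d overlapped, as did those of Hdac4 and Hdac7, and the other neighbours in this order did not overlap. In Jag2sm the order was Mef2a (18.9 ± 3.51 CPM per kb, SD, n = 4), Mef2d (16.3 ± 2.71), Hdac5 (9.85 ± 2.68), Hdac7 (6.74 ± 1.69), Mef2c (6.68 ± 3.51), Hdac4 (3.52 ± 0.57) and Hdac9 (0.165 ± 0.146). Mef2c thus was the first in WT and the fifth in Jag2sm, where its range overlapped those of Hdac5, Hdac7 and Hdac4. In Jag2sm the ranges of Mef2a and Mef2d also overlapped, as did those of Hdac5 and Hdac7. Division by length assumes that reads rise with transcript length, which was not tested for these long-read libraries. In CPM without this division the means of the 7 genes had the same order in each group.

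The 5 tested genes with the level pattern nearest to Mef2c, by the root mean square (RMS) difference of centred log2 CPM over the 7 libraries, were Smpx (0.20), Myl1 (0.21), Tnni2 (0.25), Actn2 (0.28) and Tnni1 (0.28). They encode a small striated-muscle protein, a myosin light chain, the fast and slow troponin I and the α-actinin of the Z disc. Their log2 fold changes ran from -3.69 to -3.30, values that the choice by likeness to Mef2c over the same libraries largely fixes. By the same measure Mef2a was the 530th and Mef2d the 590th nearest gene to Mef2c.

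Most of the genes that MEF2 is known to switch on in muscle were lower in Jag2sm. Of the 18 genes of that list 17 were tested. Of these 12 were called lower and none higher, beside 4.84% and 1.42% of all tested genes. The list, like the 7 genes, was chosen with earlier results of these data known. Its median log2 fold change was -2.86 beside 0.05 over all tested genes. Myom2, an M-band protein, gave 513, 175 and 168 CPM in WT and 21.7 to 35.1 CPM in Jag2sm, a log2 fold change of -3.29 ± 0.40 (SE, adjusted p = 0.00273). Srpk3, a muscle protein kinase, had 36.0 to 46.1 CPM in WT and 1.48 to 8.15 CPM in Jag2sm. Smyd1, a methyltransferase of sarcomere assembly, had 327 to 623 and 21.7 to 94.6 CPM. Myom1, the other M-band gene, had 73.7 to 311 and 1.97 to 14.7 CPM. Their log2 fold changes were -3.26, -3.29 and -4.24. Without WT replicate 1 those of Myom2 and Myom1 were -2.66 and -3.48, and without Jag2sm replicate 4 those of Smyd1 and Myom1 were -3.93 and -4.86, all still called. The MEF2 target Jun, an AP-1 subunit, was not called (log2 fold change 0.92, adjusted p = 0.349). This estimate was 0.14 without Jag2sm replicate 1, and Jun was called higher with no filter on low counts (0.94, adjusted p = 0.0373). Xirp2, an actin-binding protein of the intercalated and Z discs, missed the threshold (-3.18, adjusted p = 0.0673). It was called lower with the batch number as a block (-3.32, adjusted p = 9.53e-04), with DESeq2 (0.0475), with no filter on low counts (3.77e-17) and without WT replicate 3 (0.0329). Meg3, a noncoding RNA named after its values were seen, was not called either (-1.74, adjusted p = 0.167). It was called with the block (-2.43, adjusted p = 0.0395) and with no filter on low counts (3.59e-05). Without Jag2sm replicate 2 the number called lower was 7 in place of 12. Of the 13 genes of the list with a promoter window, 3 held the MEF2 site, Jun, Srpk3 and Xirp2.

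Among the bHLH partners of MEF2, 2 of 7 tested genes were called lower and none higher, beside 4.84% and 1.42% of all tested genes. The median log2 fold change of the list was -0.19, beside 0.05 over all tested genes. Myf6 had 32.2 to 167 CPM in WT and 0.815 to 7.07 CPM in Jag2sm (log2 fold change -4.33, adjusted p = 0.00656, or -3.56 without WT replicate 1). Myog, the bHLH factor of terminal differentiation and on the target list too, had 2222 to 2894 and 110 to 906 CPM (-2.33, adjusted p = 0.0300), a call that was lost without any 1 of 5 libraries (WT replicates 1 to 3, Jag2sm replicates 1 and 2, adjusted p 0.0572 to 0.107). Myod1, the determination factor, had 697 to 830 CPM in WT and 615 to 806 CPM in Jag2sm, and its log2 fold change was -0.19 (95% interval -0.68 to 0.30, adjusted p = 0.696). Tcf3, an E protein that pairs with them, had a log2 fold change of 0.42 (adjusted p = 0.297).

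Among kinases that act on class IIa HDACs, 3 of 16 tested genes (18.8%) were called lower, beside 4.84% of all tested genes, and none higher. At an unadjusted p under 0.05 there were 6 of 16, beside 19.7% of all tested genes, and the median log2 fold change was -0.09. The 3 were Prkaa2, a catalytic subunit of AMP kinase (20.7 to 51.9 CPM in WT, 0.985 to 4.24 in Jag2sm, log2 fold change -3.20, adjusted p = 0.00615), Sik1, a salt-inducible kinase (118 to 196 and 48.1 to 68.5 CPM, log2 fold change -1.28, adjusted p = 0.0107) and Camk2a, a CaM kinase II subunit (35.6 to 190 and 2.46 to 17.9 CPM, 8.01-fold lower, adjusted p = 0.0284). The call of Camk2a was lost with a robust fit (adjusted p = 0.0539) and without Jag2sm replicate 1 (0.0683) or 2 (0.0852). Its log2 fold change was -2.19 without WT replicate 1 and -3.60 without Jag2sm replicate 4. Prkaa1, the other catalytic subunit, and Camk2d, another CaM kinase II gene, had log2 fold changes of -0.15 (adjusted p = 0.838) and -0.60 (adjusted p = 0.357). Camk2b stands outside the naming rule and was picked out after its values were seen. It was not called (-2.90, adjusted p = 0.0555). It was called with the batch number as a block (adjusted p = 0.00924), with DESeq2 (0.00177) and with no filter on low counts (3.49e-08). Prkd2 and Sik3, named in the same way, had positive estimates that were not called (1.18, adjusted p = 0.166, and 0.68, adjusted p = 0.141). Of the 16 estimates 10 were negative and 6 positive.

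No gene was called in the lists of 14-3-3 proteins (6 tested, 0 at an unadjusted p under 0.05), corepressors of class IIa HDACs (12 tested, 2 at an unadjusted p under 0.05) or MEF2 cofactors and activators (15 tested, 3 at an unadjusted p under 0.05). Over all tested genes 6.26% were called and 19.7% had an unadjusted p under 0.05. The median log2 fold changes of the 3 lists were 0.21, -0.02 and -0.19. DESeq2 called 1 corepressor lower, Bcl6 (adjusted p = 0.0181, against 0.0809 in the main test), 1 cofactor lower, Vgll2 (0.0256 against 0.0900), and no 14-3-3 gene. Bcl6 was also called with the batch number as a block (adjusted p = 0.0109). With no filter on low counts Bcl6 and Vgll2 were both called (adjusted p = 1.90e-06 and 8.78e-05). The activator Map2k6 had a positive estimate, from 5 reads in WT and 41 in Jag2sm (log2 fold change 2.07, adjusted p = 0.0596). It was called higher with library size alone (adjusted p = 0.0434). Bcl6, Vgll2 and Map2k6 were named after their values were seen. The 14-3-3 genes with the highest CPM, Ywhae and Ywhab, had log2 fold changes of -0.11 and 0.19. The corepressor Cbx5, a heterochromatin protein, had 0.04. The coactivator Crebbp and the p38 activator Map2k3 had -0.19 and -0.20. Of the other classical HDACs, 5 were tested and only Hdac11, the class IV enzyme, was called, beside 6.26% of all tested genes. Hdac11 had 11.5 to 15.2 CPM in WT and 2.07 to 5.71 CPM in Jag2sm (log2 fold change -1.79, adjusted p = 0.0327). Its adjusted p was 0.0623 with the batch number as a block, 0.103 with DESeq2, and between 0.0539 and 0.185 without WT replicate 2 or 3 or Jag2sm replicate 2 or 3. Hdac2 and Hdac3, with the highest CPM of these, had log2 fold changes of 0.10 and -0.01.

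**Figure D5:**
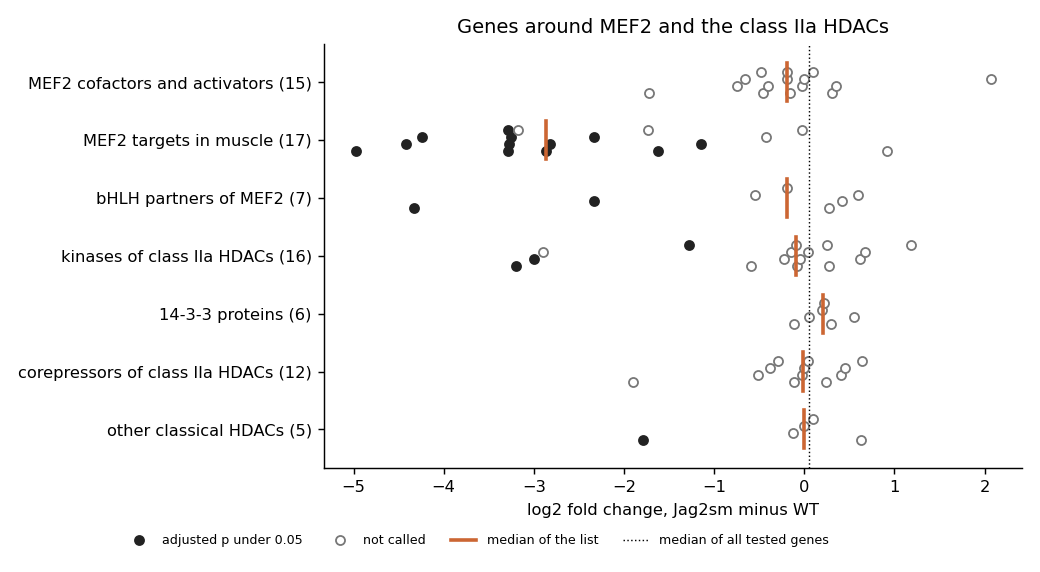
Log2 fold change (Jag2sm minus WT) of the tested genes of 7 lists around MEF2 and the class IIa HDACs, the number tested in brackets. Filled points have an adjusted p under 0.05, open points do not, orange lines are list medians, and the dotted line is the median of all tested genes. Filled points make up 12 of the 17 MEF2 targets and none of the 14-3-3 proteins, corepressors or cofactors. Over all tested genes 6.26% were called.

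Between the genotypes, the lower Mef2 levels went together with lower levels of differentiated muscle genes. Of 9 such markers 8 were tested and all 8 were called lower, beside 4.84% of all tested genes. The 9 markers summed to 18134 to 29364 CPM in WT and 760 to 4283 CPM in Jag2sm. Jag2sm replicate 3 was lowest both in this sum and in Mef2c. That library was not the lowest of its group in Mef2a (127 CPM) or Mef2d (93.1 CPM). Of the 9 tested markers of MuSCs and myoblasts, 1 was called lower and none higher, beside 4.84% and 1.42% of all tested genes. The called marker was Des, which is also a MEF2 target. All markers of this list summed to 3360 to 5839 CPM in WT and 2182 to 2662 CPM in Jag2sm. That gap was Des alone, since the other 9 markers summed to 1239 to 1621 CPM in WT and 1270 to 1641 CPM in Jag2sm. The call of Des (log2 fold change -1.63, adjusted p = 0.0244) was lost with the batch number as a block (adjusted p = 0.0596) and without Jag2sm replicate 1 (0.0601) or 2 (0.0890), and without WT replicate 1 the log2 fold change was -1.06. Pax7, the defining marker of MuSCs, gave 28.8, 95.7 and 80.6 CPM in WT, the first from 5 reads. In Jag2sm it gave 100.4, 129, 172 and 125 CPM, so every Jag2sm library lay above every WT library, which held for 10.3% of all tested genes. Its log2 fold change of 0.80 (95% interval 0.12 to 1.48) did not pass (adjusted p = 0.174). Besides Des and Pax7, the tested markers of this list had estimates of both signs, and none was called. They were -0.63 for Itga7, -0.61 for Cdh15, -0.19 for Myod1, 0.32 for Sdc4, 0.60 for Myf5, 0.71 for Cd34 and 1.03 for Vcam1. The part of the differentiated cells in the Mef2 results was not tested.

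Endothelial markers summed to 4.74 to 11.5 CPM in WT and 7.88 to 17.0 CPM in Jag2sm, with Kdr at 0 in every library. Immune markers summed to at most 4.08 CPM, with Ptprc, Adgre1, Cd3e and Lyz2 at 0 in every library. Fibro-adipogenic markers reached at most 21.7 CPM and glial markers at most 5.66 CPM. The tenocyte list summed to 115 to 123 CPM in WT and 29.6 to 75.8 CPM in Jag2sm, nearly all of it Scx. Scx was called lower (log2 fold change -1.34, adjusted p = 0.0223), a call lost without WT replicate 2 or 3 or Jag2sm replicate 1 or 2 (adjusted p 0.0528 to 0.0870). The mural list summed to 27.1 to 57.6 CPM in WT and 26.9 to 645 CPM in Jag2sm. Its 2 tested genes had estimates of opposite sign. Abcc9, a channel subunit that muscle also expresses, was called lower (log2 fold change -3.71, adjusted p = 0.0139). Rgs5, a regulator of G-protein signalling, gave 11.5 to 14.2 CPM in WT and 25.3 to 645 CPM in Jag2sm, with every Jag2sm library above every WT library. Its log2 fold change of 3.73 was not called (adjusted p = 0.135), and without Jag2sm replicate 1 it was 1.27 and was called (adjusted p = 0.0491). The part of these markers in the Mef2 results was not tested.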

How the data were processed

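RNA of MuSCs was sequenced as barcoded direct cDNA on 2 PromethION flow cells. Per the labels and the study's methods, the authors called bases with dorado, used minimap2 2.17 for the alignment to GRCm39, and HTSeq for counts per gene. The version, the strand setting and the annotation release are not given in the sources used here. The authors deposited raw counts, whole reads per Ensembl gene, for each library. Rows that name no gene (no feature, ambiguous, low quality, not aligned) held 45.0% to 75.2% of each file's total and stayed out of library sizes and tests. A further deposited table holds the authors' own comparison (fold changes and p-values) and was not used.

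Identifiers were matched without version to GENCODE M39 (56017 of 56748). Groups came from the genotype labels. The main test was edgeR 4.0.16 (quasi-likelihood; R 4.3.3) with filterByExpr (minimum count 10), TMM scaling and no covariates on all 7 libraries, with Benjamini-Hochberg adjustment over the 9489 tested genes. On simulated counts for the 9489 genes it recovered 63% of genes changed by 1.5 and 93% of those changed by 3 on the log2 scale. Of its calls 6.59% were false, against 14.5% of calls with the replicate block. The simulated counts held no batch effect and as many raised as lowered genes. They cannot show how the block does where batches differ. Within-library ratios used log2 CPM with a prior count of 2 and exact permutation over the 35 splits (SciPy 1.17.1). Coding sequences were aligned end to end with Biopython. Alternatives were DESeq2 1.42.0, limma-voom 3.58.1, other scalings and filters, a replicate block, thinning, and leaving out each library. The labels give each replicate number as a batch, which is where the pairing of WT and Jag2sm libraries comes from. Over the tested genes the deviations of paired libraries from their group means correlated at 0.074, 0.014 and 0.054.

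The 7 genes, the pathway lists, the marker lists and the rule for named genes were chosen with earlier results of these data known. That rule named the 7 genes and Jag2, up to 4 called genes per pathway list with the smallest p and up to 2 uncalled ones with the highest mean CPM, the 5 genes nearest to Mef2c, and markers at 0 in all libraries. One gene that the rule names is not reported here. Named outside the rule, after their values were seen, were Des, Pax7, Itga7, Cdh15, Sdc4, Myf5, Cd34, Vcam1, Scx, Abcc9 and Rgs5. So were Meg3, Bcl6, Vgll2, Map2k6, Camk2b, Prkd2, Sik3, the overlapping genes and Mef2b. Intervals on counts cover counting error only.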

Additional observations from a re-analysis of the deposited data

Results flagged for a closer look

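Of 53 sets of 4 Jag2sm values checked for a sample far from the other 3, 6 were flagged. Chance flags about 1 in 20 only where sets are independent and values normally distributed. These sets share libraries and some rest on a few reads, so the 6 flags cannot be read against that rate. The log2 ratio of Mef2c to Mef2a was -2.88 in Jag2sm replicate 3, and the next lowest value was -1.03. Smyd1 was at 94.6 CPM in Jag2sm replicate 4, with 33.9 CPM in the next library. Jun was at 703 CPM in Jag2sm replicate 1 and at most 185 CPM in the others. In the same library the mural markers summed to 645 CPM, all of it Rgs5, against at most 44.8 CPM in the others. Also there, the endothelial markers summed to 17.0 CPM and the glial markers to 5.66 CPM, against at most 8.98 and 2.07 CPM, sums that rest on a few reads each.

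The reads that were not aligned lie outside the gene counts. They made up 50.8%, 46.7% and 46.0% of the reads in Jag2sm replicates 1, 2 and 4, above the 2.44% to 3.24% of the WT libraries, while Jag2sm replicate 3 had 3.07%. What these reads hold was not analysed here.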

How the results depend on the processing

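Mef2c was called lower in all 16 alternative fits (log2 fold change -4.39 to -3.42). Mef2a was called in all but 1, without Jag2sm replicate 2, and its log2 fold change ran from -1.36 to -1.06 when each library was left out. Mef2d kept its direction in all 16 and was not called in 7, with a log2 fold change of -0.90 under library size alone, -1.03 with the replicate block, and -1.23 to -0.78 when each library was left out. The replicate block changed the call of no other of the 7 genes. Hdac4, Hdac5 and Hdac7 kept their direction and were called in none of their 14 to 16 fits. The number of the 7 genes called lower was 1 to 3 when each library was left out, and 1 only without Jag2sm replicate 2. The number of MEF2 targets called lower was 7 to 13 in the same fits.

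Library size alone shifted the median log2 fold change of all genes by 0.16 and gave 61.4% of calls lower against 77.3%, with 241 genes called higher. Genes called lower were 780 with no filter, 231 with at least 10 counts in every library, 200 after thinning and 221 to 466 when each library was left out. Genes called higher were 206 with DESeq2, 468 with no filter, 43 with at least 10 counts in every library, 56 after thinning and 20 to 220 when each library was left out. Fewer genes were tested with at least 10 counts in every library (2981) and after thinning (3564) than in the main fit (9489). The cause of these shifts was not tested.

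Some uncalled genes near 0 changed sign, and none was called in those fits. Hdac3 was 0.037 with DESeq2, 0.0029 with DESeq2 size factors in edgeR, 0.15 with library size alone, 0.014 with no filter, 0.13 after thinning and -0.20 to 0.15 without each library. Prkaa1 was 0.0079 with library size alone, 0.018 with at least 10 counts in every library and -0.30 to 0.019 without each library. Ywhae was 0.047 and 0.032 in the same 2 fits and -0.29 to 0.0028 without each library. Crebbp was 0.0092 and Cbx5 -0.11 after thinning. Leaving out each library gave -0.23 to 0.21 for Cbx5, -0.087 to 0.46 for Ywhab and -0.14 to 0.35 for Hdac2. The mean share of Mef2c among the Mef2 genes in WT was 53.0% per kb of transcript in place of 57.6%, with the same order of the genotypes. The within-library ratios gave the same calls with a prior count of 0.5. WT replicate 1, with 187834 reads, limits the lowest genes, Hdac7 and Hdac9 first.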
